A study of Homo sapiens with 24 samples.

Results

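The transcriptome of ATRX_KO cells was compared with that of WT cells after both had received etoposide. The 6 libraries of this comparison were taken by their column names, 3 of ATRX_KO and 3 of WT cells of the ATRX series, out of 24 in the whole data set. All cells were U87-T, a line made from the human glioblastoma line U87 by transduction with the telomerase gene TERT flanked by lox sites. WT cells, called sgCon, carried an empty lentiviral Cas9 vector. ATRX_KO cells came from 1 clone, A-d#1, so the knockout and the clone cannot be told apart. The paper describes its ATRX and DAXX knockout clones as survivors of continuous passage with acquired features of ALT, which is telomere maintenance by recombination. That acquired state cannot be told apart from the knockout either. The 6 corresponding libraries without drug, labelled untreated, and the 6 etoposide libraries of a parallel DAXX series (DAXX_KO and its own WT cells) served for comparison. The dose and duration of etoposide in the RNA-seq experiment were not given in the sources used here. The study describes its replicates in general as biological, but the sources used here do not say how the cultures behind these libraries were separated, so the p-values measure the spread between these libraries.

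ATRX is a chromatin remodeller that works with DAXX, a chaperone of the histone variant H3.3, to place H3.3 at telomeres, pericentromeric repeats and other heterochromatin. Loss of either protein is common in tumours that maintain telomeres by recombination (ALT). Etoposide traps topoisomerase II on DNA as breaks. In cells with functional p53 such breaks stabilise p53, which switches on genes for arrest, apoptosis, repair and its own feedback, while E2F and DREAM targets for replication and mitosis are shut down.

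Total counts ranged from 10124817 to 10982066 in the WT etoposide libraries and from 10793903 to 12993423 in the ATRX_KO etoposide libraries. A count of 3 corresponded to 0.277 to 0.301 CPM and 0.217 to 0.267 CPM, respectively, where CPM is counts relative to the library total after TMM scaling. This floor covers counting error only. Between 22695 and 22865 genes had a count in the WT libraries, and between 23427 and 24851 in the ATRX_KO libraries. A single short RNA, BCYRN1, took 9.46% ± 0.216 (SD, n = 3) of the counts in WT and 4.67% ± 0.392 (SD, n = 3) in ATRX_KO. ATRX_KO replicate 1 stood apart from replicates 2 and 3, with chi-square values per degree of freedom of 11 and 17.1 against 6.07 between the latter, and 2.47 to 3.00 among the WT libraries. Counts without this library are therefore given below. All 10 markers of mesenchymal and glioma cell lines were above 1 CPM in both groups, with a summed level of 12100 to 12830 CPM in WT and 12990 to 13500 CPM in ATRX_KO. Within this sum, mean TIMP1 went from 491 CPM in WT to 3072 CPM in ATRX_KO, and mean CAV1 from 1593 to 510 CPM. Of 10 astrocyte and glioma lineage markers, 6 in WT and 3 in ATRX_KO were above 1 CPM, and AQP4 and S100B had no count in either group. These lineage markers summed to 121.4 to 127.8 CPM in WT and 66.05 to 76.14 CPM in ATRX_KO. Neuron markers summed to 50.68 to 55.41 CPM in WT and 34.28 to 44.41 CPM in ATRX_KO. Of the 6 neuron markers in the table, 6 in WT and 5 in ATRX_KO were above 1 CPM. Endothelial markers summed to at most 1.61 CPM and epithelial markers to at most 4.82 CPM.

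With etoposide, 7518 of 16371 genes tested (45.9%) differed between ATRX_KO and WT at an FDR of 0.05. Of these, 3767 (23.0% of genes tested) were higher and 3751 (22.9%) lower in ATRX_KO. The median absolute log2 fold change over all genes was 0.40, and 2315 of the called genes changed at least 2-fold, 1042 upward and 1273 downward. The libraries of the 2 groups did not overlap for 54.8% of the genes. Without ATRX_KO replicate 1, 3738 genes were higher and 3766 lower. Scaling by library totals alone moved the calls to 4684 higher and 3091 lower, so 60.2% of calls were then upward against 50.1% with TMM. With 45.9% of all genes called, counts in gene lists were read against these background shares.

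**Figure D1:**
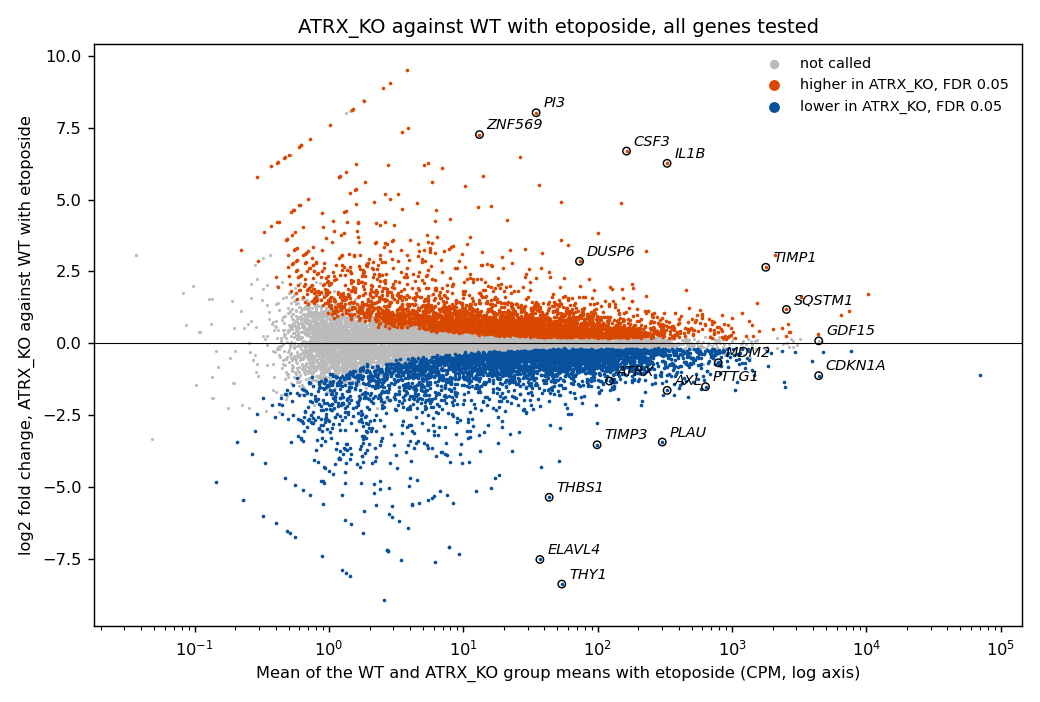
Each point is 1 gene, with its mean level with etoposide in CPM on a log axis and its log2 fold change of ATRX_KO against WT. Calls at an FDR of 0.05 lie at all levels, and abundant genes such as CDKN1A and TIMP1 are among them, on opposite sides of 0.

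The targeted gene was the first to be examined. ATRX (chrX:76760358-77041719, minus strand, GRCh37) had 171, 173 and 181 CPM in the WT libraries and 60.5, 79.7 and 70.1 CPM in the ATRX_KO libraries. The groups did not overlap, and ATRX fell by 1.32 ± 0.0904 (SE) on the log2 scale, with an adjusted p of 5.83e-09. The remaining 3′-end counts do not show the edited site, so they do not tell how much intact ATRX mRNA was left. In the opposite direction, DAXX, its partner, rose from 20.9, 21.8 and 19.1 CPM to 46.2, 38.3 and 40.3 CPM (log2 fold change 1.01, adjusted p = 3.21e-07). The DAXX difference was larger than in control cells, by 0.69 on the log2 scale (adjusted p = 0.00266). Of 19 tested genes for H3.3 deposition and its partners, 6 were higher and 6 lower. TRIM28, the KAP1 corepressor that silences repeats, fell by 1.26 on the log2 scale, and PML, the scaffold of PML nuclear bodies, fell by 0.89. Both H3.3 genes were lower, H3-3A by −0.70 and H3-3B by −0.53 in log2 fold change. H3-3B lies on chromosome 17, whose genes had a median of −0.29. Without chromosomes 17, 21 and 22 the list had 5 higher and 4 lower of 15.

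The largest differences were almost complete losses and gains of single genes. THY1, a surface glycoprotein of mesenchymal cells, had 110, 107 and 106 CPM in WT and 0.356, 0.289 and 0.302 CPM in ATRX_KO with etoposide. ELAVL4, a neuronal RNA-binding protein, had 78.0, 69.9 and 73.5 CPM against 0.267, 0.361 and 0.528 CPM. Both were thus near the detection floor in every ATRX_KO library. ARHGAP36, GABRA2 and FAM3B had at most 4 counts in the 3 ATRX_KO libraries together, and the ratio of WT to ATRX_KO was 235 for ARHGAP36 (95% exact counting interval 64.6 to 1947), 176 for GABRA2 (68.3 to 647) and 148 for FAM3B (57.6 to 547). RUNX1T1, DTNBP1, THBS1, SULF2 and SLC25A4 completed the 10 largest falls, with log2 fold changes from −5.56 to −5.29. Falls and rises were ranked among non-overlapping protein-coding genes at 10 CPM or more, and some genes at lower levels had larger fitted changes. Upward, PI3, a protease inhibitor of inflamed epithelia, went from 0.0925, 0.287 and 0.402 CPM in WT to 74.9, 63.2 and 69.7 CPM in ATRX_KO. The cytokine genes CSF3 and IL1B, the receptor gene CD300LB and the germline gene MORC1 also belonged to the 10 largest rises. The other 5 were zinc finger genes of chromosome 19, ZNF569, ZNF528, ZNF260, ZNF420 and ZNF480. ZNF569 had 25.6, 25.4 and 27.5 CPM in ATRX_KO and 5 counts in all 3 WT libraries, a ratio of 164 (69.9 to 505).

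After these genes had been seen, the zinc finger genes were counted by symbol. On chromosome 19, 62 of 188 were higher and 27 lower in ATRX_KO with etoposide, with a median log2 fold change of 0.29. On other chromosomes, 45 of 194 were higher and 35 lower, with a median of 0.11. Over all genes tested the median was 0.01. In control cells the chromosome 19 genes had a median of 0.38. Zinc finger genes of this cluster resemble each other in sequence, and reads shared between them may have been split by the counting.

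**Figure D2:**
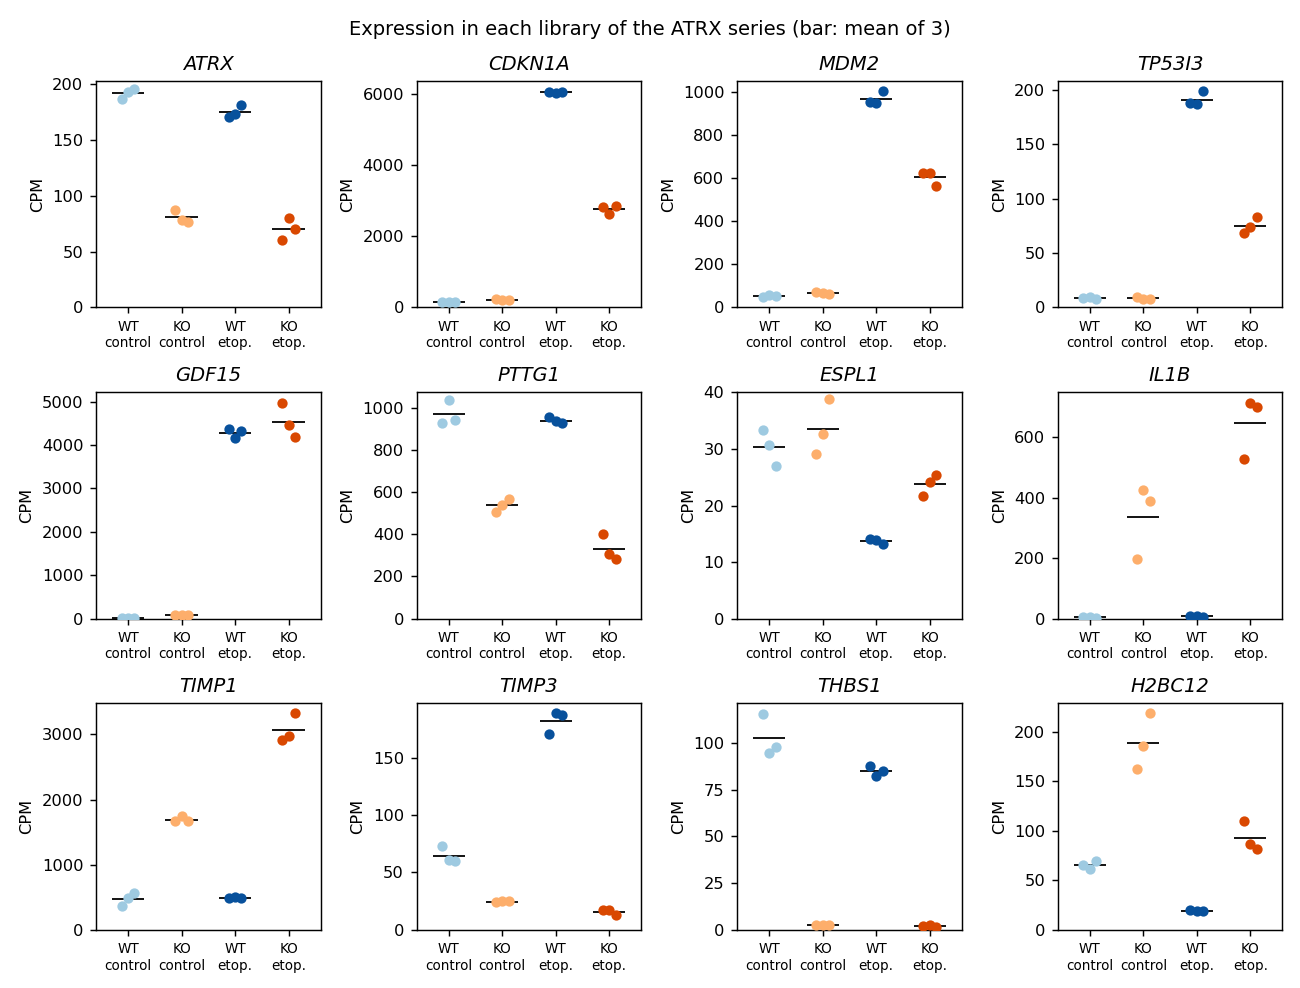
CPM of 12 genes in each of the 12 libraries of the ATRX series, with 1 point per library and a bar at the mean of 3. With etoposide, GDF15 is the 1 gene shown whose WT and ATRX_KO libraries overlap.

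Genes switched on by p53 were more often lower than higher in ATRX_KO cells with etoposide in the arrest, apoptosis, repair and feedback lists. Of 78 tested members of 5 lists, 40 were lower and 15 higher, with a median log2 fold change of −0.36, where 22.9% and 23.0% of all genes tested were lower and higher. In control cells the same genes had a median of 0.15, with 28 higher and 17 lower, where 20.8% and 21% of all genes tested were higher and lower. The knockout effect with etoposide minus that in control cells was called negative for 33 members and positive for 7 (7.64% and 8.36% of all genes tested). Without ATRX_KO replicate 1, 40 members were lower and 16 higher. The lists were written from general knowledge with earlier results of these data known.

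Among arrest genes, 12 of 20 were lower and 2 higher, with a median of −0.54. CDKN1A, the cyclin-dependent kinase inhibitor p21 (chr6:36644237-36655114), had 6068, 6016 and 6064 CPM in WT and 2833, 2625 and 2853 CPM in ATRX_KO. Its level in control cells was 159 CPM in WT and 212 CPM in ATRX_KO on average, so it was induced in both genotypes, to a lower level in ATRX_KO. GADD45A, a stress sensor of the G2 checkpoint, had 1441, 1331 and 1435 CPM against 870, 978 and 683 CPM, a change of −0.73 ± 0.108 (SE) on the log2 scale with an adjusted p of 3.12e-05. The antiproliferative gene BTG2 went from 67.9, 69.9 and 67.2 CPM to 28.9, 26.6 and 24.6 CPM, and SERTAD1, PHLDA3 and SFN had log2 fold changes of −1.28, −1.22 and −1.26. BTG2 and PHLDA3 lie in 2 adjoining blocks of 30 genes on chromosome 1 with medians of −0.57 and −0.52, and −0.38 and −0.36 in control cells. The groups did not overlap for CDKN1A, GADD45A, BTG2, SERTAD1, PHLDA3 or SFN. SESN2, a sestrin that restrains mTORC1, fell by 0.65 on the log2 scale. By contrast, GDF15, a secreted stress cytokine, had 4368, 4160 and 4313 CPM in WT and 4968, 4466 and 4184 CPM in ATRX_KO (log2 fold change 0.08, adjusted p = 0.39). GDF15 was higher in ATRX_KO control cells (83.9 against 12.7 CPM), and its interaction was −2.64 (adjusted p = 1.09e-09). PLAGL1, an imprinted zinc finger gene, rose by 3.19.

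In the apoptosis list, 11 of 18 were lower, with a median of −0.52. Outside the blocks of 30 neighbouring genes with a median at or below −0.3, 7 of 14 were lower, with a median of −0.29. By edgeR 0 were called higher, as by DESeq2, and 1 had an unadjusted p under 0.05 in that direction. With scaling by library totals, 2 were higher and 9 lower. TP53I3, an oxidoreductase induced by p53, had 188, 187 and 199 CPM in WT and 68.4, 73.8 and 83.5 CPM in ATRX_KO (log2 fold change −1.34 ± 0.0911, SE, adjusted p = 4.93e-09). The TRAIL receptor genes were lower, TNFRSF10A by −1.70, TNFRSF10C by −1.64, TNFRSF10B by −1.02 and TNFRSF10D by −0.31 in log2 fold change. The TNFRSF10D call was lost with library totals and when any of 4 single libraries was left out. These 4 genes are neighbours on chromosome 8, and the block of 31 genes around them had a median of −0.62 with etoposide and −0.43 in control cells, with 19 lower and 0 higher. FAS, APAF1 and PMAIP1 (NOXA) were also lower, by −0.86, −1.11 and −0.67. BBC3 (PUMA) had 178, 192 and 184 CPM in WT against 177, 150 and 149 CPM in ATRX_KO, a small difference (−0.21, adjusted p = 0.0331) whose call was lost under 8 of the alternatives. BAX, the mitochondrial effector, had 25.4, 23.1 and 26.9 CPM against 30, 23.8 and 22.2 CPM, and the groups overlapped (log2 fold change 0.01, adjusted p = 0.97).

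Repair and feedback genes of the p53 response had 6 of 12 members lower in each list, with 3 and 2 higher. The feedback list was as low in control cells, with a median of −0.36 against −0.39 with etoposide, and its interaction was called positive for 4 members and negative for 3. The repair list had a median of −0.22, and of −0.09 outside chromosomes 17, 21 and 22. FDXR, a mitochondrial ferredoxin reductase, had 548, 543 and 520 CPM against 168, 212 and 228 CPM. DDB2, which recognises ultraviolet damage, went from 499, 530 and 525 CPM to 260, 236 and 240 CPM. POLH, a translesion polymerase, and PCNA, the sliding clamp, had log2 fold changes of −0.92 and −0.91. In the feedback list, MDM2, the ubiquitin ligase of p53, had 955, 951 and 1005 CPM in WT and 627, 626 and 566 CPM in ATRX_KO (log2 fold change −0.68 ± 0.0751, SE, adjusted p = 1.43e-06). The phosphatase gene PPM1D (WIP1) went from 65.3, 65.2 and 63.5 CPM to 21.1, 20.2 and 21.2 CPM, and TRIAP1, an inhibitor of apoptosis, from 708, 779 and 713 CPM to 274, 277 and 308 CPM. TP73, the p53 relative, had 7.77, 4.30 and 4.62 CPM against 0.534, 0.506 and 0.377 CPM. All of these groups were separate. FDXR and PPM1D lie on chromosome 17, whose genes had a median of −0.29. Outside chromosomes 17, 21 and 22, 38 of 73 members of the 5 lists were lower and 15 higher. Outside all blocks of 30 neighbouring genes with a median at or below −0.3, 31 of 67 were lower and 15 higher, and their median was −0.20, against 2891 lower and 3675 higher of 14805 genes and a median of 0.06.

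Of 17 metabolic and secreted p53 targets, 8 were higher and 5 lower, with a median of 0.34. In control cells their median was 0.67 with 11 higher, and the interaction was called negative for 6 of them. PAPPA, a protease that releases insulin-like growth factors, rose from 66.3, 71.9 and 69.4 CPM to 158, 195 and 224 CPM. The macrophage growth factor gene CSF1 rose from 29.9, 27.3 and 24.3 CPM to 71.5, 73.0 and 67.0 CPM. CMBL, a hydrolase, was 1.08 lower.

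**Figure D3:**
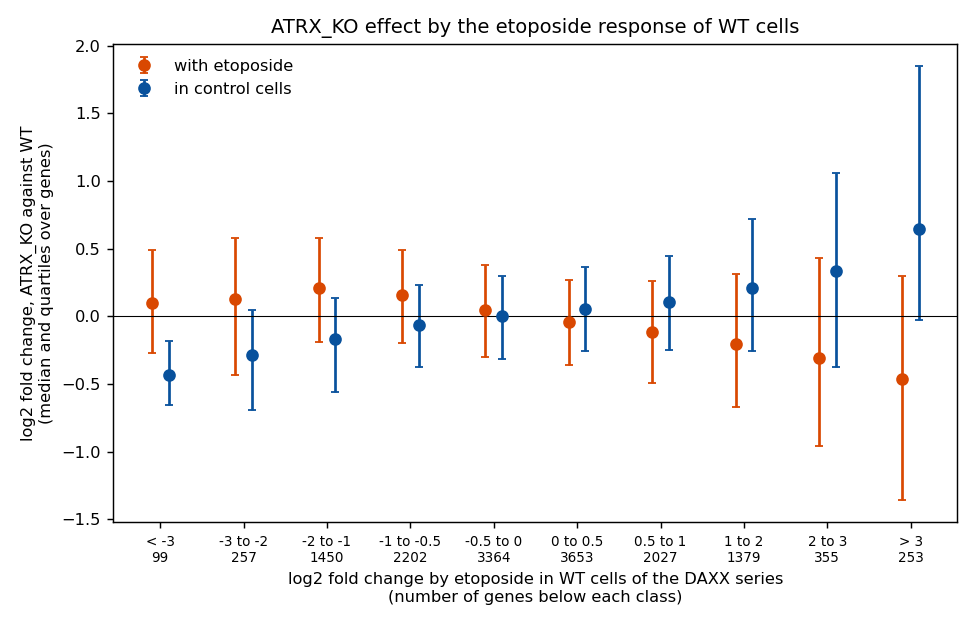
Genes are grouped by their log2 fold change by etoposide in WT cells of the DAXX series, libraries that do not enter the ATRX comparison. Points are medians and bars are quartiles over genes of the log2 fold change of ATRX_KO against WT, with etoposide and in control cells. The 2 sets of points cross near 0, and with etoposide the median ranges from 0.21 to −0.46.

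To ask how genes that respond to etoposide differed between the genotypes, genes were sorted by their response in WT cells of the DAXX series. Of 4467 genes that rose with etoposide there, 36.4% were lower and 16.9% higher in ATRX_KO with etoposide, with a median log2 fold change of −0.18. Of 4655 genes that fell, 34.6% were higher and 19.9% lower, with a median of 0.14. Among 5917 genes with no call in WT, 20.2% were higher and 17.8% lower. In control cells the directions were opposite, with 28.5% of the risen genes higher and 34.1% of the fallen genes lower in ATRX_KO, against 20.8% and 21% of all genes tested in control cells. Genes that rose at least 8-fold numbered 251, and 44.6% of them were lower in ATRX_KO with etoposide, against 4.78% in control cells. Their median log2 fold change was −0.43 with etoposide and 0.65 in control cells. The interaction was called negative for 77 of these 251 genes. It was called positive for 0 by edgeR and by DESeq2, with 6 at an unadjusted p under 0.05. Choosing genes by such a rise favours low counts in untreated WT cells, where a lower call in ATRX_KO is harder to reach. The shares with etoposide and in control cells are therefore not on an equal footing for these genes. The WT cells of both series are the same line, and the sorting used none of the 12 libraries of the ATRX series.

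Of 47 tested genes for DNA replication and the G1/S transition, 24 were lower and 5 higher in ATRX_KO with etoposide, with a median of −0.36. With scaling by library totals, 17 were lower and 7 higher. GINS4, a subunit of the replicative helicase, had 107, 102 and 113 CPM in WT and 27.8, 30.3 and 27.8 CPM in ATRX_KO. The helicase subunit MCM5 went from 130, 128 and 138 CPM to 47.6, 48.4 and 45.1 CPM, and thymidine kinase TK1 from 390, 371 and 401 CPM to 180, 152 and 112 CPM. For each gene the groups were separate. MCM5 and CDC45 (log2 fold change −1.44) lie on chromosome 22, where the median was −0.47, and TK1 on chromosome 17. GINS4 lies on chromosome 8 in a block of 31 genes with medians of −0.56 with etoposide and −0.60 in control cells. Outside chromosomes 17, 21 and 22, 20 of 42 members were lower and 5 higher, with a median of −0.25. Outside the blocks of 30 neighbouring genes with a median at or below −0.3, 19 of 42 were lower and 5 higher. Their median was −0.21. In control cells 28 of all 47 were lower and 2 higher, and their median of −0.38 was close to −0.36 with etoposide.

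Mitotic genes were called in both directions. Of 67 tested, 25 (37.3%) were lower and 11 (16.4%) higher with etoposide, against 22.9% and 23.0% of all genes tested, whereas 42 were lower in control cells. In control cells 0 members were called higher by edgeR or DESeq2, and 0 had an unadjusted p under 0.05 in that direction. The interaction was called positive for 16 members and negative for 5. With scaling by library totals the counts with etoposide were 20 lower and 16 higher. PTTG1 (securin), which guards sister chromatids, had 955, 934 and 926 CPM in WT and 401, 306 and 282 CPM in ATRX_KO (log2 fold change −1.51 ± 0.104, SE, adjusted p = 6.04e-09). CCNB1, the mitotic cyclin B1, had 27.6, 32.1 and 30.8 CPM against 14.9, 13.3 and 13.3 CPM, although its levels in control cells, 201 CPM in WT and 175 CPM in ATRX_KO, were closer together (interaction −0.93, adjusted p = 4.90e-05). BIRC5 (survivin), KIF20A and UBE2S fell by 1.23, 1.15 and 1.02 on the log2 scale. BIRC5 and TOP2A lie on chromosome 17, whose median was −0.29, and outside chromosomes 17, 21 and 22, 22 of 63 members were lower and 11 higher. Upward, ESPL1 (separase), the protease that PTTG1 restrains, had 14.2, 13.9 and 13.2 CPM in WT and 21.7, 24.2 and 25.4 CPM in ATRX_KO (log2 fold change 0.79, adjusted p = 6.60e-05). ECT2, the exchange factor of the cleavage furrow, had 16, 14.6 and 13.8 CPM against 21.8, 22.03 and 21.1 CPM. The condensin subunit NCAPD2 and the spindle gene ASPM were both 0.54 higher. CDK1 had 25.5, 27.8 and 22.3 CPM against 30.4, 35.5 and 27.6 CPM. The CDK1 groups overlapped, and its call was lost without ATRX_KO replicate 2 or WT replicate 3. TOP2A, the target of etoposide, was 0.29 lower and MKI67 0.26 higher, and the MKI67 call was lost when any of 3 single libraries was left out.

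Promoters of mitotic genes carry 2 short elements that bind the DREAM and MMB complexes (CHR, searched as TTTGAA or TTCAAA) and NF-Y (CCAAT or ATTGG). They were looked up in the RefSeq promoter table of GRCh38.p14, from 250 bases before to 50 bases after the gene start, and the 4 members below were placed on GRCh37 by exact match. They are the 2 largest falls and the 2 largest rises among called members with a promoter in the table, and motifs are in capitals. PTTG1, chr5:159848612-159848911, and KIF20A, chr5:137514551-137514850, fell. ESPL1, chr12:53661833-53662132, and ECT2, chr3:172468266-172468565, rose. All 4 are on the plus strand.
PTTG1: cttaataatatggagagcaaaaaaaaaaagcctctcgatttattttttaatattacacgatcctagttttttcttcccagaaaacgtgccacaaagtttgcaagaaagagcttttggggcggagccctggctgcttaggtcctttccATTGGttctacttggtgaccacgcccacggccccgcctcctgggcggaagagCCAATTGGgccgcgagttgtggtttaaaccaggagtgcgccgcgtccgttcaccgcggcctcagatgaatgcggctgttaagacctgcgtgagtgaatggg
KIF20A: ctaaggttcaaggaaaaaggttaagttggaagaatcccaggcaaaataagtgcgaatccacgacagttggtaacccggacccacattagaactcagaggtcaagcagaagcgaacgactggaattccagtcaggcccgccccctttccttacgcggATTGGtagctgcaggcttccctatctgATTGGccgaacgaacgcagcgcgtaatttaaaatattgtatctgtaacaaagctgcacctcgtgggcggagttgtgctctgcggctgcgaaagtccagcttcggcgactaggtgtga
ESPL1: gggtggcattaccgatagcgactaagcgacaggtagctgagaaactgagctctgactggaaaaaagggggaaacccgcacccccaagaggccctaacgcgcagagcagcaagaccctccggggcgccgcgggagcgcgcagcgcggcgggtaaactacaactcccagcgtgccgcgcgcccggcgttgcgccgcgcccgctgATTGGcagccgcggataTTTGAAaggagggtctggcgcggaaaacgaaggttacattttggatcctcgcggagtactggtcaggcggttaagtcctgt
ECT2: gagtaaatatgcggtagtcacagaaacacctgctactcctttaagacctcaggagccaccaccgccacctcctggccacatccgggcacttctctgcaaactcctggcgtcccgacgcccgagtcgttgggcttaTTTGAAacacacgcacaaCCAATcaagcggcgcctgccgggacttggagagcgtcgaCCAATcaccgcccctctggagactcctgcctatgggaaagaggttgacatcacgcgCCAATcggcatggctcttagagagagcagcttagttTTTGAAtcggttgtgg

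The ESPL1 promoter holds TTTGAA 31 bases before the gene start and a reversed CCAAT 48 bases before it, and ECT2 holds TTTGAA at 115 bases before and 35 bases after the start. The windows of PTTG1 and KIF20A hold CCAAT letters only. Of 57 list members with a promoter in the table, 38 (66.7%) held TTTGAA and 41 (71.9%) held CCAAT, on either strand, against 10.2% and 36.7% of the 11204 promoters matched to tested genes, and 15.4% and 35.7% of all 27305 promoters. Among members higher in ATRX_KO with etoposide, 11 of 11 promoters held TTTGAA and 9 held CCAAT. Among members that were lower, 12 of 21 held TTTGAA and 18 held CCAAT. Among members not called, 15 of 25 held TTTGAA and 14 held CCAAT. These counts describe letters in 1 window per gene and were not tested.

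Genes of homologous recombination and the Fanconi pathway were near the background, with 7 of 35 higher and 7 lower. FANCL, the ubiquitin ligase of the Fanconi core, rose from 8.79, 8.41 and 6.22 CPM to 22.8, 29.4 and 36.0 CPM, and RAD51AP1 rose by 1.13 on the log2 scale. RAD51C and FANCG had log2 fold changes of −1.25 and −1.11. RAD51C lies on chromosome 17, and without chromosomes 17, 21 and 22 this list had 7 higher and 4 lower of 30. Of 18 topoisomerases and factors that repair their adducts, 3 were higher and 4 lower. TOP2B, the second target of etoposide, was 0.75 higher and TOP3A 0.85 lower on the log2 scale. TOP3A also lies on chromosome 17, and without chromosomes 17, 21 and 22 this list had 3 higher and 2 lower of 13. TOP1 did not pass the test (0.09, adjusted p = 0.30).

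Of 39 clustered histone genes in the table, 19 passed the filter on low counts, and 11 of these were higher and 7 lower, with a median log2 fold change of 1.17. In control cells 4 were higher and 10 lower, with a median of −0.61, and the interaction was called positive for 10 and negative for 1. H2BC12 had 19.98, 18.9 and 19.4 CPM in WT and 110, 86.9 and 82.0 CPM in ATRX_KO with etoposide (log2 fold change 2.26 ± 0.128, SE, adjusted p = 6.51e-10). H2AC6 had 9.90, 12.04 and 10.3 CPM against 70.2, 65.5 and 60.5 CPM. H2BC5 was lower in ATRX_KO than WT in control cells (3.96 against 6.56 CPM) and higher with etoposide, where it had 13.2, 14.4 and 14.02 CPM against 5.36, 5.64 and 4.82 CPM. H2BC21, H4C8 and H2BC11 rose by 1.83, 2.10 and 2.89. The core histone gene H4C3 went the other way, from 246, 250 and 289 CPM to 156, 111 and 63.7 CPM. The linker histone genes H1-3 and H1-4 were lower, by −1.82 and −1.71, and H1-2 was 0.37 higher. Most replication-dependent histone mRNAs lack a poly(A) tail, and the libraries read polyadenylated ends. Near-identical copies may also share reads. The share of polyadenylated histone mRNA was not measured.

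Inflammatory cytokines, chemokines and NF-κB feedback genes were higher in ATRX_KO with etoposide, 18 of 24 against 2 lower, with a median of 1.36. In control cells the counts were also 18 and 2, with a median of 2.10. IL1B, a pyrogenic cytokine, had 9.06, 9.74 and 6.42 CPM in WT and 527, 714 and 702 CPM in ATRX_KO (log2 fold change 6.26 ± 0.268, SE, adjusted p = 2.65e-11). CSF3, the granulocyte growth factor, had 2.59, 3.44 and 3.41 CPM against 305, 319 and 348 CPM. PTGS2 (COX-2), the prostaglandin synthase, had 11.4, 12.3 and 15.96 CPM against 224, 183 and 158 CPM. CXCL8, the neutrophil chemokine IL-8, had 5.55, 5.45 and 5.12 CPM against 73.7, 51.1 and 32.5 CPM. CXCL2 and CXCL3 rose by 3.14 and 3.37, and the inhibitor NFKBIA by 0.92. These groups were all separate. The monocyte chemokine CCL2 fell, from 10.7, 10.3 and 10.3 CPM to 1.33, 1.37 and 1.66 CPM. IL6 was low in both groups, and its difference did not pass the test (adjusted p = 0.081). White blood cell markers summed to 39.9 to 45.4 CPM in WT and 35.6 to 37.9 CPM in ATRX_KO, and 2 and 3 of 7 were above 1 CPM.

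Immediate early genes of the AP-1 and EGR families and their feedback phosphatases were higher for 12 of 24 and lower for 4, with a median of 0.61. DUSP6, a phosphatase of ERK, had 17.2, 18.3 and 17.9 CPM against 122, 138 and 126 CPM, EGR1 had 14.1, 13.3 and 11.9 CPM against 73.2, 75.3 and 72.4 CPM, and IER3 rose by 1.86. EGR2 and DUSP4 fell, by 2.43 and 2.14 on the log2 scale. Interferon-stimulated genes and cytosolic DNA sensors did not move as a group, with 7 of 35 higher, 9 lower and a median of 0.00. Among them USP18, IFITM2, MX2 and IFITM3 fell by 2.44, 1.79, 1.63 and 1.25. USP18 lies on chromosome 22 and MX2 on chromosome 21. Without chromosomes 17, 21 and 22 the list had 7 higher and 7 lower of 31. OAS1, an RNA sensor, had 3.05, 3.44 and 3.01 CPM against 0.979, 1.08 and 0.754 CPM, with an interaction of −2.01 (adjusted p = 0.00821). Of 16 MHC class I presentation genes, 3 were higher and 4 lower, TAP1, TAP2 and PSMB9 among the latter by −0.66, −0.76 and −0.61. B2M did not pass the test (−0.19, adjusted p = 0.34).

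Of 31 collagens and matrix glycoproteins, 21 were lower and 2 higher, with a median of −1.04 with etoposide and −0.95 in control cells. THBS1 (thrombospondin-1) had 87.6, 82.3 and 84.9 CPM in WT and 2.05, 2.53 and 1.58 CPM in ATRX_KO. Fibulin gene FBLN1 had 69.8, 71.4 and 73.2 CPM against 3.03, 3.76 and 3.996 CPM, and COL1A1 had 228, 230 and 217 CPM against 41.4, 61.3 and 71.8 CPM. The proteoglycan gene VCAN and fibronectin FN1 fell by 1.79 and 0.90. COL1A2, which encodes the partner chain of COL1A1, rose by 0.83. COL6A1 and COL6A2, by −1.06 and −1.12, lie on chromosome 21, whose median was −0.75, FBLN1 on chromosome 22 and COL1A1 on chromosome 17. Outside chromosomes 17, 21 and 22, 17 of 27 members were lower and 2 higher.

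Matrix proteases and their inhibitors went both ways, 9 of 25 higher and 9 lower. TIMP3, a matrix-bound metalloprotease inhibitor (chr22:33197691-33259028), had 170, 189 and 187 CPM in WT and 17.6, 16.8 and 12.8 CPM in ATRX_KO, a change of −3.53 ± 0.112 (SE) on the log2 scale with an adjusted p of 7.02e-13. The difference was larger than in control cells by −2.14 on the log2 scale (adjusted p = 4.57e-07). TIMP1, the soluble inhibitor, rose from 487, 499 and 488 CPM to 2913, 2974 and 3330 CPM. PLAU (urokinase) fell from 584, 568 and 507 CPM to 53.1, 54.7 and 45.5 CPM, and ADAMTS5 (aggrecanase-2) rose from 7.12, 8.79 and 8.43 CPM to 100, 98.8 and 96.1 CPM, although it lies on chromosome 21. Integrins and laminins also went both ways, 8 of 23 higher and 6 lower, with ITGB3 up by 2.40 and ITGA6 down by 2.29. Of 6 insulin-like growth factor binding proteins, 4 were lower and 1 higher. IGFBP3 had 109, 106 and 105 CPM against 20.4, 20.2 and 17.4 CPM, IGFBP2, IGFBP1 and IGFBP7 had log2 fold changes of −3.79, −3.21 and −1.57, and IGFBP6 rose by 1.07.

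Among 20 receptor tyrosine kinases of glioma, 7 were lower and 2 higher. AXL, the receptor of GAS6, had 486, 500 and 506 CPM in WT and 162, 156 and 161 CPM in ATRX_KO (log2 fold change −1.64 ± 0.0683, SE, adjusted p = 2.12e-11). EPHA2 and ROR1 fell by 1.89 and 3.298, and INSR rose by 1.93. EGFR, often amplified in glioblastoma, had a log2 fold change of −0.01 (adjusted p = 0.92) and MET one of −0.10 (adjusted p = 0.21), so neither passed the test.

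**Figure D4:**
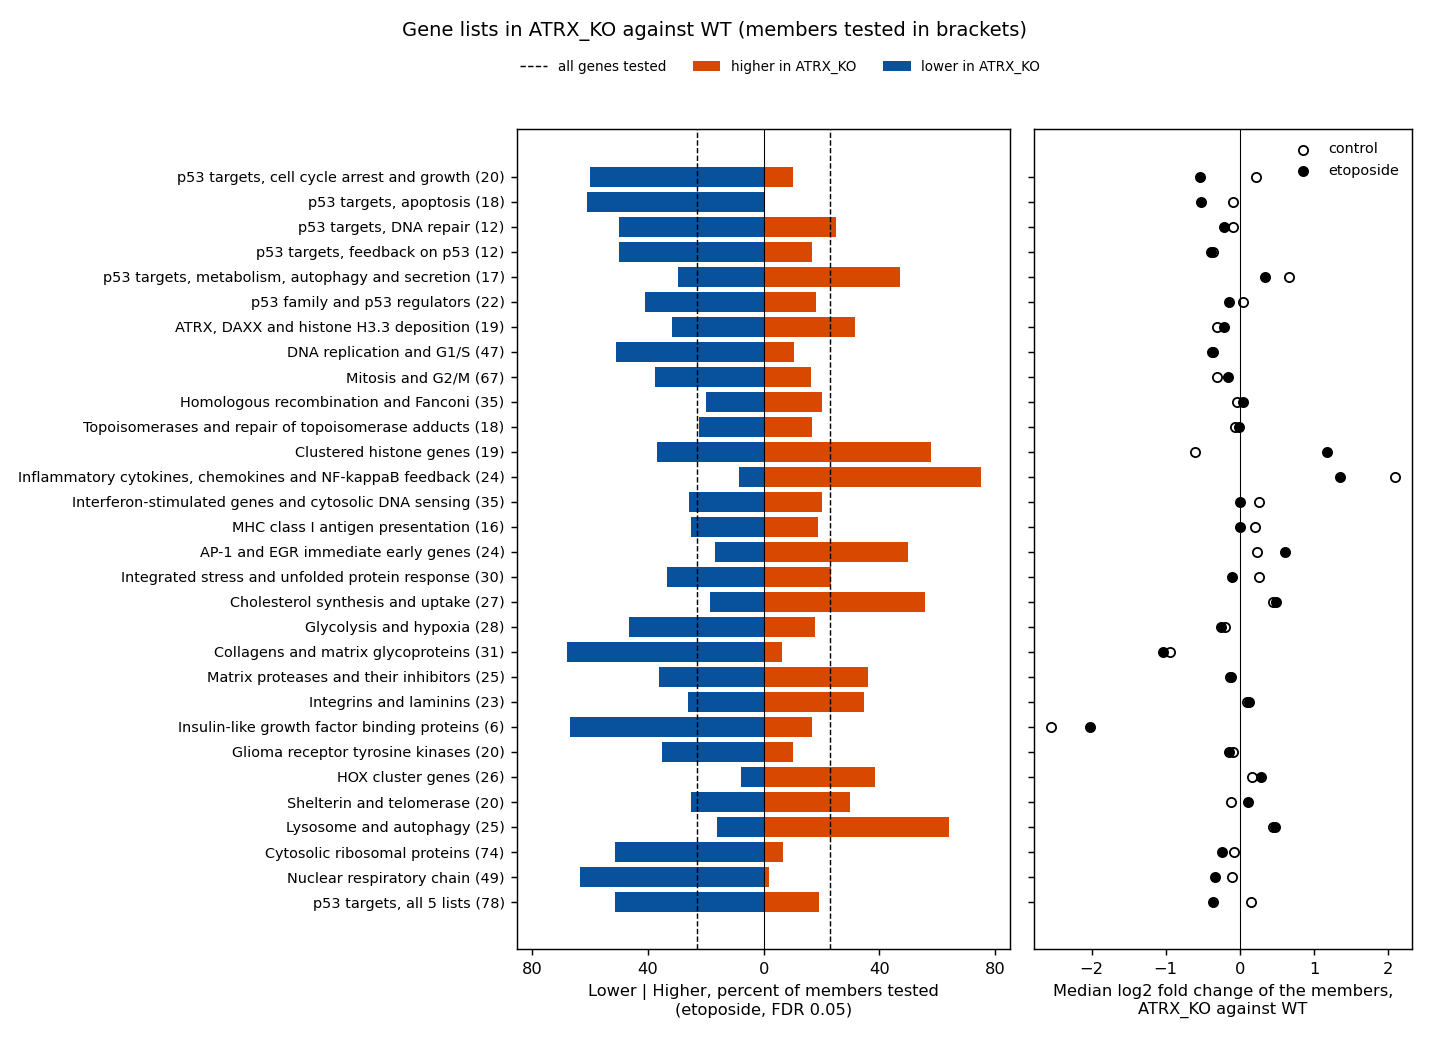
Left, the percent of tested members of each list called lower (blue) and higher (orange) in ATRX_KO with etoposide, with dashed lines at the shares over all genes tested, 22.9% and 23.0%. Right, the median log2 fold change of the members with etoposide (filled) and in control cells (open). For the clustered histone genes the 2 medians, 1.17 and −0.61, lie on opposite sides of 0.

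Lysosome and autophagy genes were higher for 16 of 25 and lower for 4, with a median of 0.47. SQSTM1, the autophagy receptor p62, had 1528, 1520 and 1620 CPM in WT and 3741, 3308 and 3503 CPM in ATRX_KO, and cathepsin CTSL had 44.1, 39.3 and 37.9 CPM against 150, 156 and 137 CPM. Cholesterol synthesis and uptake genes were higher for 15 of 27 and lower for 5, with a median of 0.49. SREBF2, their transcription factor, went from 12.2, 14.3 and 14.6 CPM to 43.2, 47.2 and 57.2 CPM, although it lies on chromosome 22. HMGCS1 and DHCR7, 2 enzymes of the pathway, rose by 1.44 and 1.69. Nuclear genes of the respiratory chain were lower for 31 of 49 and higher for 1, with a median of −0.34, and ATP5MC1 and ATP5PO fell by 1.07 and 1.09. These 2 genes lie on chromosomes 17 and 21, outside which and chromosome 22 the list had 28 of 45 lower and a median of −0.34. Ribosomal protein genes were lower for 38 of 74 and higher for 5, with a median of −0.24. In control cells these 2 lists had medians of −0.11 and −0.07. Glycolysis and hypoxia genes were lower for 13 of 28 and higher for 5, with ENO1 at −0.61. Mitochondrially encoded genes were not among the genes tested.

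Stress response genes of the ATF4 and unfolded protein pathways were lower for 10 of 30 and higher for 7 with etoposide, against 6 and 15 in control cells. ATF4 itself had 605, 609 and 637 CPM in WT and 298, 336 and 404 CPM in ATRX_KO, with an interaction of −0.79 (adjusted p = 0.00248). The amino acid transporter subunit SLC3A2 and the serine synthesis enzyme PSAT1 had log2 fold changes of −0.87 and −1.28. ATF4 is on chromosome 22, and outside chromosomes 17, 21 and 22 the list had 6 lower and 7 higher. HOX genes were higher for 10 of 26 and lower for 2, with HOXA5 up by 1.42, and both lower genes, HOXB5 and HOXB4, on chromosome 17. The HOXB4 call was lost without ATRX_KO replicate 3 (adjusted p = 0.0508 by edgeR). Of 20 shelterin and telomerase genes, 6 were higher and 5 lower. TINF2, which encodes the shelterin subunit TIN2, rose by 0.74, and ACD, which encodes TPP1, fell by 0.93. TERT, which these cells carry as a transgene, did not pass the test (−0.25, adjusted p = 0.54). Small nuclear RNAs were lower for 22 of 38, with a median of −0.89, and −1.06 in control cells. By edgeR and DESeq2 0 were called higher, and 0 had an unadjusted p under 0.05 in that direction. The libraries read polyadenylated ends, and near-identical copies may share reads. Counts of small nuclear RNAs may therefore not follow the level of these RNAs in the cells.

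Much of the difference was also present without drug. In control cells 6846 genes (41.8%) were called between ATRX_KO and WT. With etoposide and in control cells, 4302 genes were called in the same direction, 57.2% of the etoposide calls and 62.8% of the control calls, 2083 of them higher and 2219 lower. Opposite directions were found for 285 genes, 122 higher with etoposide and lower in control cells, and 163 the reverse. These comparisons share no libraries, but they share the WT line, the clone and the estimate of dispersion.

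The knockout effect itself differed between etoposide and control cells for 2619 genes (16.0%), with 1369 more positive and 1250 more negative with etoposide. Among genes called with etoposide and at 10 CPM or more, the most negative interactions belonged to KEL, LCE1C, LCE1F, LCE1B and LRATD1. KEL, a blood group metalloprotease, had 21.5, 19.5 and 17.6 CPM in WT and 6.32, 5.63 and 5.96 CPM in ATRX_KO with etoposide, and it had 0 counts in the WT control libraries. LCE1C, a cornified envelope protein of skin, had 97.4, 92.0 and 99.8 CPM against 7.12, 3.97 and 6.11 CPM, and it was also at 0 in WT control libraries. Fitted interactions of such genes depend on the prior count and are not given as bounds. The most positive interactions were those of GPRC5C (2.32), ELAVL4 (2.18), H2BC5 (2.12), RUNX1T1 (2.00) and RGS4 (2.00). ELAVL4 and RUNX1T1 were near the detection floor in ATRX_KO libraries, so their values and ranks depend on the prior count too. GPRC5C, an orphan receptor, had 25.6, 27.8 and 27.5 CPM in WT and 14.1, 11.3 and 12.7 CPM in ATRX_KO with etoposide. In control cells its means were 23.5 and 2.20 CPM, so the gap was wider there.

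CD70, a ligand of the TNF family, had 28.6, 26.2 and 36.1 CPM in WT and 64.5, 35.7 and 33.5 CPM in ATRX_KO with etoposide, and its groups overlapped (0.55, adjusted p = 0.040). The CD70 call was lost with the replicate block and when any of 3 single libraries was left out. TMTC1, a mannosyltransferase, was at 0.925, 1.15 and 0.703 CPM in WT and 21.8, 28.8 and 23.8 CPM in ATRX_KO.

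DAXX_KO cells with etoposide offered a second knockout with its own WT libraries. There, 4252 of 15247 genes tested were higher (27.9%) and 3835 lower (25.2%). Of 15039 genes tested in both series, 4646 were called in both knockouts, 64.8% of the 7166 ATRX_KO calls and 58.4% of the 7960 DAXX_KO calls. With 7166 and 7960 of these 15039 genes called in ATRX_KO and DAXX_KO, many would be called in both without any relation. The 4646 genes comprised 1860 higher in both, 1931 lower in both, 369 higher in ATRX_KO and lower in DAXX_KO, and 486 the reverse. ARHGAP36, GABRA2, ELAVL4, THY1 and FAM3B had the largest shared changes, all falls. The 5 p53 lists together had a median of −0.36 in ATRX_KO and −0.34 in DAXX_KO. MDM2 was lower by −0.68 in ATRX_KO and −0.69 in DAXX_KO, and the difference of 0.03 had a 95% interval from −0.19 to 0.24.

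The size of the knockout effect differed between ATRX and DAXX for 5752 of 16674 genes (34.5%). CDKN1A had a log2 fold change of −1.13 in ATRX_KO and 0.02 in DAXX_KO, a difference of −1.13 (adjusted p = 7.37e-11). TRIAP1 and DDB2 differed in the same direction, by −1.25 and −0.92. GADD45A fell more in DAXX_KO (−2.0), with a difference of 1.28 (adjusted p = 4.60e-07), and FDXR likewise, with a difference of 0.62. Collagens and matrix glycoproteins had a median of −1.04 in ATRX_KO and 0.01 in DAXX_KO, and the difference was called negative for 18 and positive for 2 (17.7% and 16.8% of all genes tested). For clustered histone genes the medians were 1.17 and −0.41, with 10 differences positive. By edgeR 0 were called negative, and 1 had an unadjusted p under 0.05 in that direction. The ATRX_KO effects on IL1B and CSF3 exceeded those of DAXX_KO by 6.14 and 5.997 on the log2 scale. TIMP1, SQSTM1, DUSP6 and SREBF2 were likewise more positive in ATRX_KO, by 2.15, 1.45, 2.74 and 1.85. Genes called in opposite directions with the largest differences were MAGED4B, MAGED4, HOXC10, IGFBP1 and DTNBP1. MAGED4B and MAGED4 are near-identical copies whose reads cannot be assigned with certainty. HOXC10 had 28.0, 28.3 and 30.2 CPM in WT and 37.6, 34.5 and 35.7 CPM in ATRX_KO, a log2 fold change of 0.32, against −6.13 in DAXX_KO. The lysosome and autophagy list had a median of 0.47 in each knockout, while the difference was called for 17 of its 25 members, 6 positive and 11 negative.

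**Figure D5:**
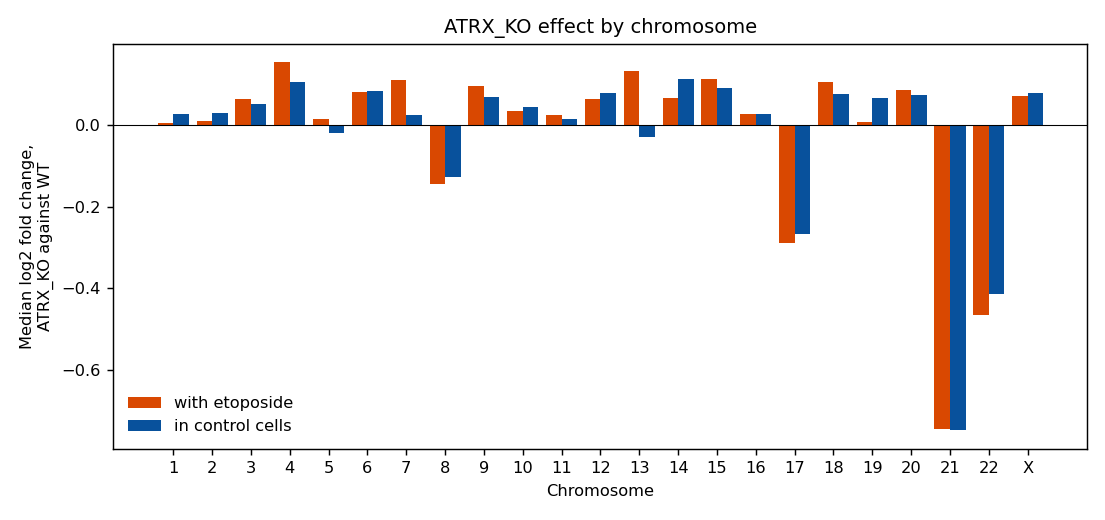
Median log2 fold change of ATRX_KO against WT over the tested genes of each chromosome, with etoposide and in control cells. Chromosomes 21, 22 and 17 have the lowest medians, −0.75, −0.47 and −0.29 with etoposide, and similar values in control cells.

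Genes on some chromosomes were lower as a block. On chromosome 21, 105 of 169 genes were lower and 5 higher with etoposide, with a median of −0.75 in both conditions. On chromosome 22, 196 of 393 were lower and 46 higher, with medians of −0.47 and −0.41. Chromosome 17 had 415 of 973 lower and 117 higher, with medians of −0.29 and −0.27, and chromosome 8 a median of −0.14. The first 3 blocks of 65 genes on chromosome 8 were lower, with medians of −0.43, −0.47 and −0.64 with etoposide and −0.43, −0.43 and −0.63 in control cells, against 0.19, 0.03 and 0.15 in DAXX_KO with etoposide. On chromosome 1, 2 adjoining blocks of 60 genes had medians of −0.54 and −0.58 with etoposide, −0.43 and −0.71 in control cells and −0.61 and −0.83 in DAXX_KO with etoposide. In blocks of about 60 neighbouring genes, 26 of 253 had a median at or below −0.3, 23 of them also in control cells, and 10 were at or above 0.3. These 26 blocks held 1662 genes, of which 894 were lower and 116 higher. Outside chromosomes 17, 21 and 22, 3599 genes were higher and 3035 lower of 14836, with a median of 0.05. DNA copy number was not measured in these files, and its part in these blocks was not tested.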

How the data were processed

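RNA was profiled by QuantSeq 3′ mRNA sequencing in 24 libraries, with 3 per group. The authors aligned reads to GRCh37 (hg19) with STAR and deposited estimated counts per Ensembl gene from RSEM, which were already whole numbers. The methods and the submitters' processing notes give different RSEM versions. No value column was left unmapped to a sample.

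Counts of the 12 ATRX-series libraries were fitted in 1 model with edgeR 4.0.16 in R 4.3.3, with TMM scaling, filterByExpr (minimum count 10, minimum total 15) and the quasi-likelihood test with Benjamini-Hochberg adjustment at an FDR of 0.05. Differences from DAXX_KO came from 1 model of all 24 libraries, and the genes called in DAXX_KO from the 12 libraries of its own series. DESeq2 1.42.0, other scalings, filters, models and thresholds, a replicate block and leaving out each library were alternatives. The procedure was also run on simulated counts in which only a small share of genes changed. That run does not show how it performs where 45.9% of genes are called. Standard errors were the absolute log2 fold change divided by the square root of F. CPM is per library total after TMM scaling, and 3 counts were taken as the floor.

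Gene types and positions came from GENCODE lifted to GRCh37, which matched 55501 of 57736 gene identifiers (98.8% of counts) and 15869 of the 16371 tested. Same-numbered libraries of different groups had correlations of their deviations from −0.216 to 0.041, so replicate numbers were not taken to pair libraries. The DAXX_KO libraries carry a genotype tag that reads ATRX KO, but their titles say DAXX and were used.

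The comparison, the gene lists and the tests were chosen with earlier results of these data known. Named genes were ATRX and DAXX, the 10 largest rises and falls among non-overlapping protein-coding genes at 10 CPM or more, up to 4 called members with the largest change and the 2 most abundant of each list, a set of single genes of the p53 response and proliferation, and the largest interactions and contrasts with DAXX_KO. Other list members were named after their values were seen. Chromosomes 17, 21 and 22, the low blocks of neighbouring genes and the zinc finger genes were also singled out after the data were seen. Some genes that the rule names are not reported here.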

Additional observations from a re-analysis of the deposited data

Results flagged for a closer look

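The effect of ATRX knockout differed between etoposide and control cells for 2619 genes by the interaction test. Among single genes the difference, as etoposide minus control on the log2 scale, was −1.55 for CDKN1A, −1.03 for MDM2, −1.25 for GADD45A, −1.33 for TP53I3 and −2.64 for GDF15. It was −2.14 for TIMP3, −1.94 for CD70, −1.31 for TMTC1 and −0.93 for CCNB1. The most negative values were −7.83 for KEL, −7.24 for LCE1C, −5.25 for LCE1F, −4.95 for LCE1B and −4.01 for LRATD1, and for KEL and LCE1C the WT control libraries had no count. The most positive were 2.32 for GPRC5C, 2.18 for ELAVL4, 2.12 for H2BC5, 2.00 for RUNX1T1 and 2.00 for RGS4.

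With etoposide, the knockout effect differed between ATRX and DAXX for 5752 genes. The difference, ATRX minus DAXX on the log2 scale, was −1.13 for CDKN1A, 1.28 for GADD45A, −0.35 for GDF15, −1.62 for TIMP3 and −2.06 for CD70. For proliferation genes it was −0.31 for TOP2A, 0.96 for MKI67 and −1.11 for CCNB1. Among genes called in opposite directions it was 8.49 for MAGED4B, 7.69 for MAGED4, 6.47 for HOXC10, −5.98 for IGFBP1 and −5.88 for DTNBP1.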

How the results depend on the processing

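Of 155 genes named and called with etoposide, 149 kept direction and call under every setting in which they were tested. The 21 settings varied scaling, filter, model or left-out library. Genes removed by a setting's filter were not judged under it. ARHGAP36, GABRA2, FAM3B and ZNF569, for example, did not pass the filter of at least 10 counts in each compared library. Among the 155, 0 reversed. BBC3, CD70, CDK1, HOXB4, MKI67 and TNFRSF10D lost the call under at least 1 of these settings. The stricter thresholds that follow, 2-fold and an FDR of 0.01, are not among the 21. Requiring 2-fold left 2315 genes with etoposide (1042 higher, 1273 lower), 2195 in control cells (1107 and 1088), 664 for the interaction (238 and 426), and 4 higher and 17 lower p53 targets. An FDR of 0.01 left 1161 interaction genes (564 and 597) and 1863 more positive in ATRX_KO than DAXX_KO. Blocks of 30 genes gave 51 lower and 30 higher, and blocks of 120 genes 11 and 1.

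Leaving out 1 library gave 6535 to 7756 calls with etoposide (3267 to 3885 higher, 3122 to 3871 lower), 5817 to 7275 in control cells (2862 to 3587, 2955 to 3688), 1933 to 2867 for the interaction (961 to 1528, 838 to 1339) and 5160 to 5736 against DAXX_KO (2492 to 2841, 2613 to 2920). It gave 12 to 16 higher and 37 to 40 lower p53 targets, and −1.42 to −1.22 for ATRX. The uncalled BAX ranged from −0.13 to 0.096 over these fits, below 0 without ATRX_KO replicate 1 or WT replicate 2. EGFR, also uncalled, ranged from −0.078 to 0.060, and became 0.015 with all 24 libraries in the model and 0.086 with library totals. The cause of these shifts was not tested.

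With the replicate number as a block, 7220 genes were called with etoposide, 3609 higher and 3611 lower. Library totals moved the median of all genes by 0.098 on the log2 scale. The groups hold 3 libraries each and 1 knockout clone, which limits every comparison.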
